A study of Mus musculus with 8 samples.

Results

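DNA replication and S phase genes were compared between tumour-associated macrophages with and without a conditional deletion of E2f3. The 48 genes were chosen by name, as factors known to act in DNA replication, and were placed in 6 steps by their role. Earlier results of these data were known when they were chosen. The steps are origin licensing, the helicase, the polymerases and other fork proteins, nucleotide supply, the cyclins with other cell cycle regulators, and chromatin. Of the 48, 47 had a probe set on the array annotated with that gene alone, out of 18194 genes in all, and Chaf1a had none here. A gene with several probe sets was represented by the one with the highest mean signal over the arrays. Of the 47, 45 passed the filter on mean signal and were tested, whereas Tyms and Mybl2 did not pass.

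The cells were F4/80-positive macrophages sorted from mammary tumours of 80-day-old FVB mice, and their RNA was measured on Affymetrix arrays, 1 sample an array. E2f3-deleted macrophages, on 4 arrays with the replicate letters A, E, F and H, came from mice with PyMT, Lys Cre and the floxed E2f3 f/f allele. Control macrophages, on 4 arrays lettered B, C, D and G, came from mice with PyMT and E2f3 f/f that lacked Cre. Both groups share the PyMT transgene, a viral oncogene under which the mammary gland forms tumours, and the floxed allele. Lys Cre is a recombinase expressed under control of lysozyme, whose gene is on across myeloid cells and not in macrophages alone. No group carried Cre without the floxed allele, so loss of E2f3 and presence of Cre cannot be told apart. The labels do not say whether arrays came from separate animals or pools, so the spread between arrays may be partly technical, and precision is limited by having 4 arrays a group.

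Before each cell division the genome is copied once. In G1, the origin recognition complex, CDC6 and CDT1 load the MCM helicase onto DNA, and geminin later keeps CDT1 from loading it again. On entry into S phase, kinases and the proteins CDC45 and GINS switch the loaded helicase on, and the polymerases, with PCNA as their clamp, copy both strands from newly made deoxynucleotides. E2F transcription factors, E2F3 among them, are known to act on many genes of these steps. Macrophages in tissue can divide, and resting cells hold little of most of these transcripts.

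All 45 replication genes that were tested had a lower mean signal in E2f3-deleted macrophages than in controls, by −0.01 to −0.39 on the log2 scale. The median difference was −0.25, a 0.844-fold level or 15.6% less signal, against a median of −0.03 over the 10916 genes tested, of which 58.7% had a difference below 0. None of the 45 passed an adjusted p under 0.05 (limma with Benjamini-Hochberg adjustment), as in 0% of all genes tested, and the smallest adjusted p of a member was 0.186. An unadjusted p under 0.05 was reached by 17 of the 45, all with a lower signal, beside 6.91% of all genes tested in that direction and 7.27% in the other. No E2f3-deleted value reached the control range in 2 of the 45, Prim2 and Gins2, both lower, a share near the 4.23% of all genes tested with the E2f3-deleted values lower, beside 4.26% with them higher. Among all genes tested, 0 passed the adjusted threshold in limma and 1548 (14.2%) had an unadjusted p under 0.05. In bulk RNA, fewer cells in S phase and less of these transcripts per cell cannot be told apart.

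**Figure D1:**
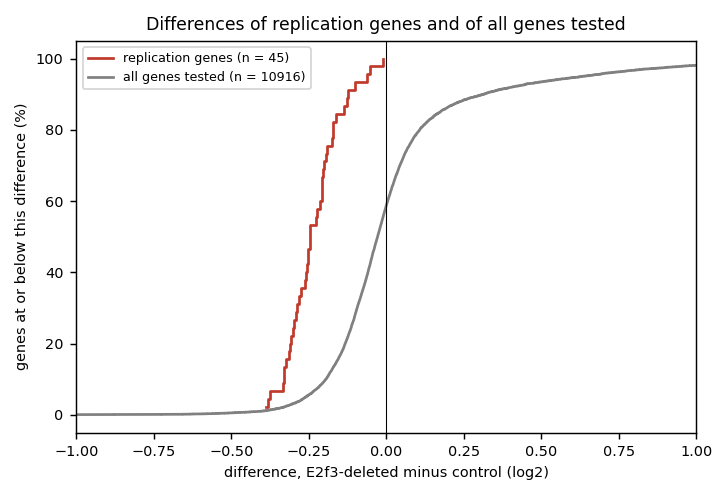
Cumulative share of genes (%) against the difference E2f3-deleted minus control (log2) for the 45 replication genes and for the 10916 genes tested, drawn between −1 and 1. The curve of the replication genes lies wholly below 0, with its median at −0.25, while that of all genes has its median at −0.03.

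All of these genes were read on the same 8 arrays, and their values moved together from array to array. Relative to the control mean of each gene, the per-array median over the 45 genes was −0.37, −0.04, −0.28 and −0.23 in the E2f3-deleted arrays (in the order A, E, F, H), against 0.04, −0.19, 0.16 and 0.01 in the control arrays (in the order B, C, D, G). Values on every array keep these orders throughout. The groups therefore overlapped, since E2f3-deleted replicate E lay above control replicate C. Control replicate C was below the control mean in 45 of 45 genes and was the lowest control in 41. Control replicate D was the highest control in 34 of 45 genes and E2f3-deleted replicate E the highest array of its group in 36. In 39 of 45 genes replicate E was above control replicate C. Replicate A lay below every control in 36 genes, replicate F in 34, replicate H in 24 and replicate E in 5. With the group means removed, 69.0% of the variance of the 45 genes between arrays lay along 1 component, so the members are not independent replicates of the comparison.

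**Figure D2:**
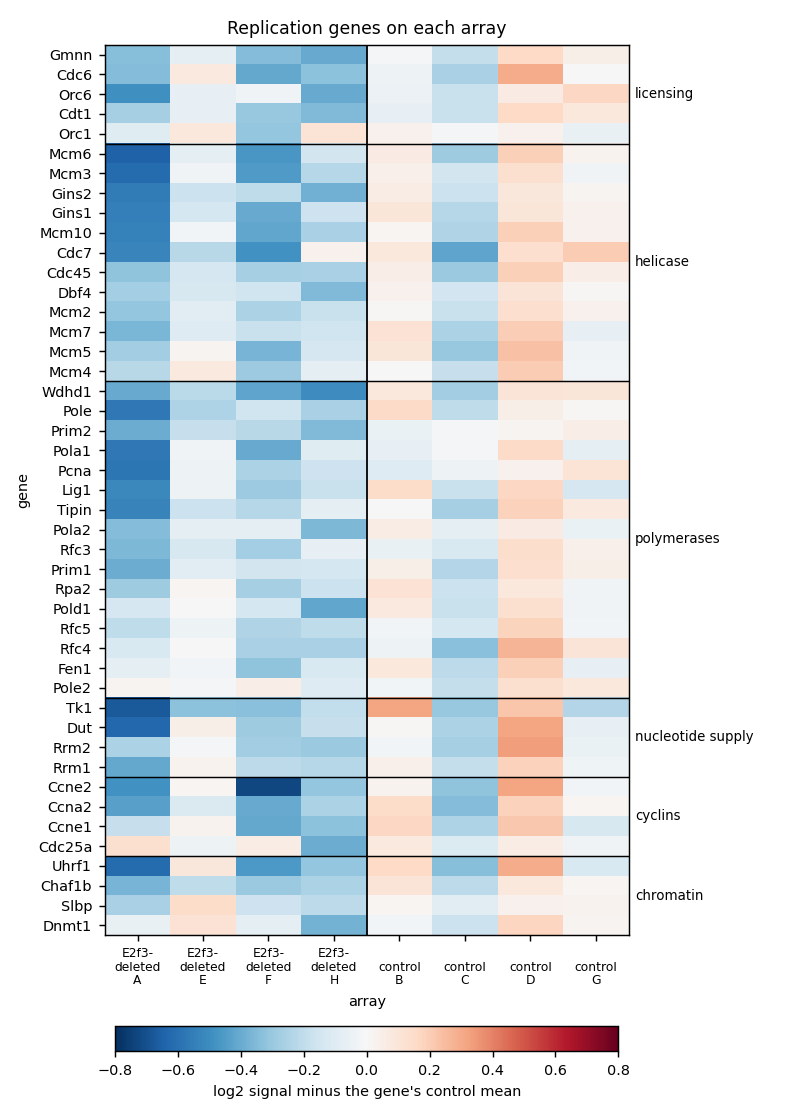
Heat map of the 45 replication genes (rows, by step) on the 8 arrays (columns, E2f3-deleted A, E, F and H, then control B, C, D and G), coloured by log2 signal minus the gene's control mean. Replicates A, F and H are mostly blue (low), replicate E is near white, and among the controls C is below and D above the control mean in 45 of 45 genes.

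Leaving out single arrays moved the count of 17 more than the median. Without control replicate C, 32 of the 45 genes had an unadjusted p under 0.05, and without E2f3-deleted replicate E 27 had. The count was 4 without control replicate D, 7 without control replicate B, 8 without control replicate G, 7 without E2f3-deleted replicate A, 9 without replicate F and 16 without replicate H. All members counted were lower, and in the same fits 4.31% to 8.49% of all genes were lower at that p. Without control replicate D the members' share (8.89%) was near that of all genes (6.2% lower, 13.4% in either direction). Over these 8 fits the median difference ran from −0.31 to −0.18, and 0 of the 45 passed the adjusted threshold in any. Groups did not overlap in 22 genes without control replicate C, beside 7.14% of all genes with the E2f3-deleted values lower, and in 17 without E2f3-deleted replicate E, beside 8.90%. The count was 4 without E2f3-deleted replicate H, 3 without replicate F, and 2 without replicate A or without control replicate B, D or G. These stand beside 5.62% to 7.94% of all genes lower without overlap in the same fits. In 20 of the 45 genes, leaving out some array moved the difference by over 1.5 times.

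Other features of the arrays moved with the groups. Degraded RNA gives a larger excess of 3′ over 5′ signal for Gapdh, and this log2 excess was 1.87, 1.48, 1.59 and 1.73 in E2f3-deleted arrays, against 1.53, 1.47, 1.39 and 1.42 in controls. With that difference as a covariate, the median over the replication genes was −0.07, 39 of 45 were below 0, and 1 had an unadjusted p under 0.05 (2.22%, lower, beside 2.57% of all genes lower at that p). Of the 18 endothelial markers, 16 passed the filter and all 16 were higher in E2f3-deleted macrophages, with a median of 1.23. Their summed signal spanned 11.39 to 13.55 log2 units in E2f3-deleted arrays and 10.84 to 11.84 in controls. Their per-array medians were 1.99, 1.07, 2.01 and 0.02 in E2f3-deleted arrays, against −0.45, 0.05, 0.44 and 0.01 in controls. With the endothelial median as a covariate the replication median was −0.18, with 43 of 45 below 0 and 4 at an unadjusted p under 0.05. Those 4 (8.89%), all lower, stand beside 8.54% of all genes lower at that p and 16.7% in either direction, so with this covariate the share is near the background. The defining endothelial genes Pecam1 and Cdh5 did not pass the filter, with means of 5.85 and 6.22 in E2f3-deleted arrays and 4.87 and 5.21 in controls.

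Markers of the sorted cells themselves were present. Of 15 macrophage identity genes with a probe set 14 were lower, with a median of −0.13, and their summed signal was 17.15 to 17.23 log2 units in E2f3-deleted arrays against 17.25 to 17.35 in controls, without overlap. Adgre1, the gene of F4/80, had log2 signals of 12.62, 12.66, 12.77 and 12.73 in E2f3-deleted arrays, against 12.97, 12.89, 12.78 and 12.86 in controls. Mast cell markers had a summed signal of 13.81 in E2f3-deleted replicate H, against 9.87 to 11.28 in the other E2f3-deleted arrays and 9.37 to 9.99 in controls. Fibroblast markers spanned 13.64 to 15.71 in E2f3-deleted arrays and 13.23 to 14.55 in controls, and mammary and tumour epithelium markers 14.72 to 15.27 in E2f3-deleted arrays and 14.62 to 15.24 in controls. Sums for T, B and NK cells were 9.28 to 10.21 in E2f3-deleted arrays and 9.76 to 10.96 in controls. Neutrophil markers summed to 10.28 to 12.68 in E2f3-deleted arrays and 10.88 to 11.97 in controls, and dendritic cell markers to 11.04 to 11.67 in E2f3-deleted arrays and 11.64 to 11.87 in controls. The part that these cells play in the replication signals was not tested.

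The letter in the title and that of the scan file named in the description differ on 7 of the 8 arrays. Scan file letters E to H are on the 4 E2f3-deleted arrays and A to D on the 4 controls, so they follow the labelled groups, running in sample order. Only if a scan file letter is read as a title letter do replicates B and F trade groups. Under that reading the median over the replication genes was −0.07, with 38 of 45 below 0 and 0 at an unadjusted p under 0.05 (limma, 449 of all genes, 4.11%, at that level and 0 after adjustment). The titles, sources and genotypes give the grouping used here.

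The targeted gene, E2f3, had log2 signals of 7.65, 7.54, 7.53 and 7.79 in E2f3-deleted arrays, against 7.66, 7.63, 7.83 and 7.58 in controls on its brighter probe set. The difference was −0.05, with a 95% confidence interval from −0.24 to 0.15. The second probe set gave −0.13, from −0.33 to 0.06. Where these probe sets lie relative to the floxed part is not given in the sources used here, so they do not check the labels.

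Promoter sequences were taken from RefSeq (GRCm38.p6) because the members moved together and E2F factors bind a known letter pattern, TTTNNCGC with each N a C or a G. Windows of 300 bases, from 250 before the gene start to 50 after it, were found for 39 of the 48 genes. On either strand the pattern was present in 15 of the 39 (38.5%), against 4.87% of the 8855 genes tested on the arrays that had a window and 2.60% of the 27025 genes in the table. Matches on opposite strands can share bases. The 15 tested members with the pattern had a median difference of −0.21, of which 3 had an unadjusted p under 0.05, and the 21 tested members with a window and no match a median of −0.22, of which 8 had one. The letters CCAAT were found in 53.8% of the 39 and 42.1% of the genes tested on the arrays, and TTTGAA, the core of the CHR element of cell cycle promoters, in 15.4% and 14.2%. Median GC content was 61.3% for windows of members and 60.7% for windows of genes tested on the arrays. A match is a description of letters and does not show binding.

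The windows of the 4 named members with a match and the smallest p are shown, 5′ to 3′ on the strand of the gene, with the matches in capitals. They belong to Cdt1 (chr8:122567765-122568064, plus strand), Mcm3 (chr1:20820263-20820562, minus strand), Mcm7 (chr5:138171834-138172133, minus strand) and Cdc6 (chr11:98907901-98908200, plus strand).
Cdt1: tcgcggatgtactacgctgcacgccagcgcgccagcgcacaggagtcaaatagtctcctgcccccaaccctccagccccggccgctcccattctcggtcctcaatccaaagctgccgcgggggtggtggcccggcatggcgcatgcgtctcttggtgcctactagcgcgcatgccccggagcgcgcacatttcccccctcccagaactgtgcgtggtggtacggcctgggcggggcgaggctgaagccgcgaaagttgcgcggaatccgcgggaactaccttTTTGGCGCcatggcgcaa
Mcm3: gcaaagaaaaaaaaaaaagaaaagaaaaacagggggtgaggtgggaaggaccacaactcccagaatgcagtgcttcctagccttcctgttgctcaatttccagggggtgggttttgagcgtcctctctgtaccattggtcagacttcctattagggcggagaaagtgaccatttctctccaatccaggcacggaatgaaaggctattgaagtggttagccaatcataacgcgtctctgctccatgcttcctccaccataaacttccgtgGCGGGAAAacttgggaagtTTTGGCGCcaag
Mcm7: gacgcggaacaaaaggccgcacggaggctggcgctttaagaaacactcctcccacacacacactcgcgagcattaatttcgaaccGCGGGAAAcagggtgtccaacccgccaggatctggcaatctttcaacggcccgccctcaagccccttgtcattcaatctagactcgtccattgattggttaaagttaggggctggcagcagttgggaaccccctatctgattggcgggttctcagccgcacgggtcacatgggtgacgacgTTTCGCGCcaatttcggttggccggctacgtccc
Cdc6: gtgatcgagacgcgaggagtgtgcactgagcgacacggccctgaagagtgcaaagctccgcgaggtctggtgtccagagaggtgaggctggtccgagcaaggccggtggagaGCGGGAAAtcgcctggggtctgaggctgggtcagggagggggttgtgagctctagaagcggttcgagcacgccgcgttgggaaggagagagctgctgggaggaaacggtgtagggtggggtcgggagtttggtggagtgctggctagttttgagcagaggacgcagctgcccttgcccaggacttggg

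In Cdt1, Mcm3 and Mcm7 a match lies within the last 50 bases of the window, after the gene start, and Mcm3 and Mcm7 each hold 2 matches. Cdc6 holds 1, upstream of the start. The values of these 4 genes follow with those of their steps.

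Licensing was measured by Orc1, Orc6, Cdc6, Cdt1 and Gmnn. All 5 were lower in E2f3-deleted macrophages, with a median of −0.25 and 2 at an unadjusted p under 0.05. Gmnn, the geminin gene, had log2 signals of 10.31, 10.58, 10.31 and 10.25 in E2f3-deleted arrays, against 10.64, 10.46, 10.81 and 10.70 in controls. Its E2f3-deleted arrays A, F and H lay below every control and array E above control C, with a difference of −0.29 (SE 0.0989, adjusted p = 0.276). Cdt1, which brings the helicase to origins, had log2 signals of 11.11, 11.31, 11.07 and 11.02 in E2f3-deleted arrays, against 11.31, 11.20, 11.53 and 11.46 in controls. Again 3 of the 4 E2f3-deleted arrays lay below every control, with a difference of −0.25 (SE 0.0942, adjusted p = 0.308). Cdc6, the ATPase that joins the origin complex in G1, had log2 signals of 7.68, 8.11, 7.62 and 7.70 in E2f3-deleted arrays, against 7.99, 7.77, 8.33 and 8.02 in controls. Replicate E was the second highest of all 8 arrays while A, F and H lay below every control, with a difference of −0.25 (SE 0.144, adjusted p = 0.454), and the difference was −0.15 without control replicate D. Orc6, a subunit of the origin recognition complex, had log2 signals of 6.68, 7.10, 7.14 and 6.76 in E2f3-deleted arrays, against 7.12, 6.98, 7.23 and 7.33 in controls. Its groups overlapped through replicates E and F, with a difference of −0.25 (SE 0.126, adjusted p = 0.410). Orc1, the largest subunit of that complex, had a difference of −0.05 (SE 0.0950), and turned to 0.03 without E2f3-deleted replicate F, so this probe set gives no direction. A second Orc1 probe set, with a mean signal under the filter, gave −0.29.

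The helicase step held 12 genes, all lower, with a median of −0.27 and 7 at an unadjusted p under 0.05. Differences of the 6 subunits of the MCM ring, Mcm2 to Mcm7, ran from −0.33 (Mcm6) to −0.13 (Mcm4), with standard errors of 0.0822 to 0.151. The subunits were read on the same arrays and moved together, so these errors do not give that of a difference between subunits. The order of the subunits was not tested. Gins2, a subunit of the GINS complex that activates the helicase, had log2 signals of 8.50, 8.89, 8.86 and 8.68 in E2f3-deleted arrays, against 9.12, 8.89, 9.15 and 9.08 in controls. The groups did not overlap, though by a narrow margin, 8.891 in E2f3-deleted replicate E against 8.892 in control replicate C, with a difference of −0.33 (SE 0.102, adjusted p = 0.253). Gins1, a partner subunit, had log2 signals of 8.44, 8.85, 8.59 and 8.83 in E2f3-deleted arrays, against 9.09, 8.76, 9.08 and 9.02 in controls. Only control replicate C lay within the E2f3-deleted range, with a difference of −0.31 (SE 0.115, adjusted p = 0.293). Dbf4, the regulatory subunit of the CDC7 kinase that fires origins, had log2 signals of 8.51, 8.66, 8.62 and 8.43 in E2f3-deleted arrays, against 8.82, 8.63, 8.89 and 8.79 in controls. It overlapped through replicate E, with a difference of −0.23 (SE 0.0771, adjusted p = 0.275).

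Mcm3, a ring subunit whose promoter is shown above, had log2 signals of 9.63, 10.22, 9.79 and 10.02 in E2f3-deleted arrays, against 10.29, 10.10, 10.38 and 10.22 in controls. Arrays A, F and H lay below every control, with a difference of −0.33 (SE 0.128, adjusted p = 0.311). Its other 4 probe sets gave −0.39, −0.32, −0.30 and −0.15. Mcm7, also a ring subunit, had log2 signals of 11.48, 11.75, 11.68 and 11.69 in E2f3-deleted arrays, against 11.97, 11.60, 12.05 and 11.79 in controls. Replicate A alone lay below the lowest control, with a difference of −0.20 (SE 0.109, adjusted p = 0.428). Its other probe sets gave −0.31, −0.27 and −0.19. The remaining helicase genes with an unadjusted p under 0.05 were Mcm2 (−0.21), Mcm10 (−0.31), which acts at the switch to unwinding, and Cdc45 (−0.24), which binds the active helicase. Mcm6 (−0.33), Cdc7 (−0.30), Mcm5 (−0.19) and Mcm4 (−0.13) were at a p above 0.05. Without control replicate D, Mcm5 was −0.11 and Mcm4 −0.06. Second probe sets above the filter gave −0.38 for Mcm5, −0.20 for Mcm4 and −0.23 for Mcm6.

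At the polymerases and the fork 16 of 16 genes were lower, with a median of −0.21 and 5 at an unadjusted p under 0.05. Prim2, the large subunit of the primase that starts each DNA chain, had log2 signals of 8.49, 8.71, 8.67 and 8.54 in E2f3-deleted arrays, against 8.83, 8.87, 8.91 and 8.94 in controls. Every E2f3-deleted value lay below every control, with a difference of −0.29 (SE 0.0644, adjusted p = 0.186), the smallest p among the members and rank 114 of all genes tested. A second Prim2 probe set with a similar signal gave −0.10 (SE 0.0759) and another, with a mean signal under the filter, 0.19, so the size for Prim2 depends on the probe set. Wdhd1, which links the helicase to polymerase alpha, had log2 signals of 8.57, 8.75, 8.55 and 8.47 in E2f3-deleted arrays, against 9.05, 8.69, 9.07 and 9.06 in controls. Its difference was the furthest from 0 among the members, and only E2f3-deleted replicate E and control replicate C crossed, with a difference of −0.39 (SE 0.104, adjusted p = 0.218). Pole, the catalytic subunit of the leading-strand polymerase, had log2 signals of 7.18, 7.50, 7.59 and 7.49 in E2f3-deleted arrays, against 7.90, 7.55, 7.80 and 7.76 in controls. Replicate F alone lay above control replicate C, with a difference of −0.31 (SE 0.110, adjusted p = 0.282).

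Pola2, a subunit of the polymerase alpha and primase complex, had log2 signals of 7.0002, 7.27, 7.27 and 6.98 in E2f3-deleted arrays, against 7.41, 7.27, 7.41 and 7.29 in controls. Its lowest controls, C and G, lay close to replicates E and F, with a difference of −0.21 (SE 0.0868, adjusted p = 0.325). Pcna, the sliding clamp, had log2 signals of 12.25, 12.79, 12.58 and 12.67 in E2f3-deleted arrays, against 12.73, 12.79, 12.87 and 12.94 in controls. E2f3-deleted replicate A was far below the other arrays and replicate E within the control range, with a difference of −0.26 (SE 0.115, adjusted p = 0.362), and without replicate A the difference was −0.15. Rfc3 (−0.21), of the complex that loads the clamp, was the fifth gene with an unadjusted p under 0.05. Pola1 (−0.27), the catalytic subunit of polymerase alpha, Lig1 (−0.26), the ligase that joins Okazaki fragments, and Tipin (−0.25), a fork protection factor, had differences of similar size at a larger p, and without E2f3-deleted replicate A they were −0.18 for Pola1, −0.17 for Lig1 and −0.16 for Tipin. Smaller values were those of Prim1 (−0.19), Rpa2 (−0.18), Pold1, Rfc5 (both −0.17), Rfc4 (−0.16) and Fen1 (−0.14), the nuclease that trims Okazaki fragments. Without control replicate D, Rfc4 and Fen1 were both −0.07 and Rfc5 −0.11. Pold1 was −0.09 without E2f3-deleted replicate H, and Prim1 −0.13 without replicate A. Second probe sets above the filter gave −0.33 for Fen1, −0.28 for Rpa2, −0.23 for Rfc4, −0.20 for Prim1 and −0.14 for Pold1. Pole2, the second subunit of polymerase epsilon, had −0.01 with an interval from −0.20 to 0.17, the nearest to 0 of the 45, and its sign turned without E2f3-deleted replicate H (0.02) and without control replicates D (0.03) or G (0.02).

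**Figure D3:**
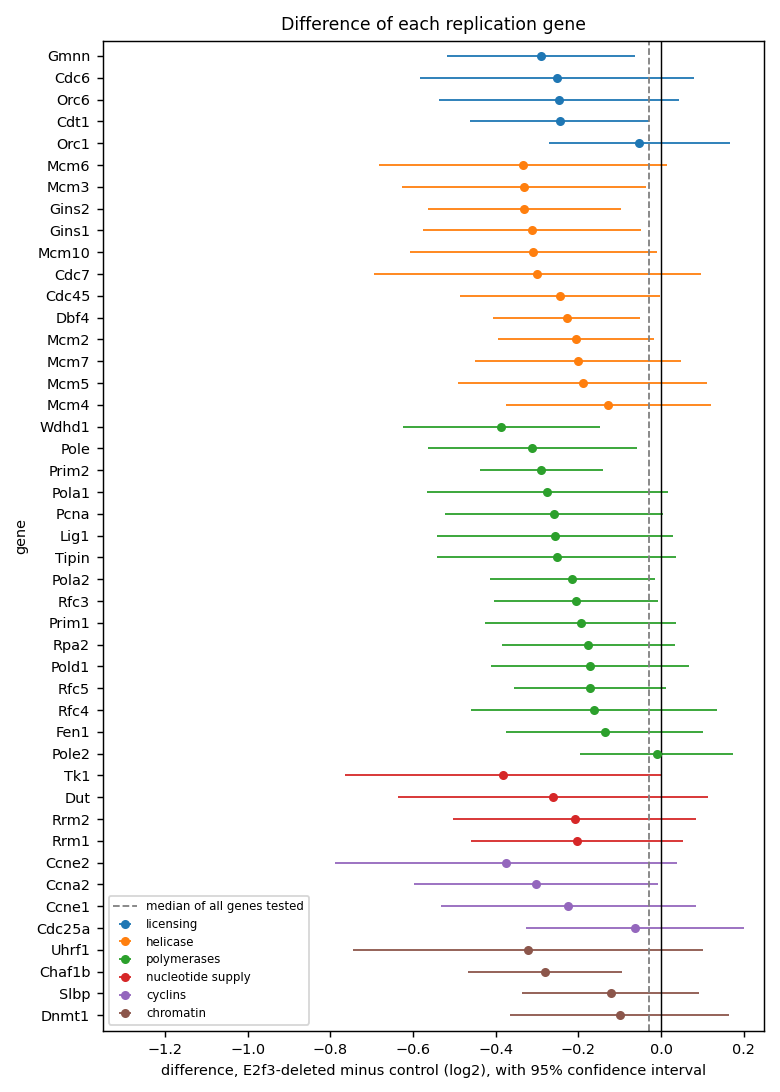
Difference E2f3-deleted minus control (log2) of each replication gene with its 95% confidence interval from limma, grouped and coloured by step, with the median of all genes tested as a dashed line. All 45 points lie left of 0, and 17 of the unadjusted intervals end below 0.

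Nucleotide supply was represented by 4 tested genes, all lower, with a median of −0.23 and 1 at an unadjusted p under 0.05. Tk1, the cytosolic thymidine kinase, had log2 signals of 9.28, 9.62, 9.61 and 9.75 in E2f3-deleted arrays, against 10.27, 9.65, 10.17 and 9.72 in controls. Control replicates B and D stood above all others, and E2f3-deleted replicate H lay above the other controls, C and G, with a difference of −0.38 (SE 0.166, adjusted p = 0.352). Rrm1 and Rrm2 are the large and small subunits of ribonucleotide reductase, which makes deoxynucleotides. Rrm1 had log2 signals of 10.43, 10.86, 10.63 and 10.61 in E2f3-deleted arrays, against 10.87, 10.64, 11.02 and 10.80 in controls, with a difference of −0.20 (SE 0.111, adjusted p = 0.432). Rrm2 had log2 signals of 10.05, 10.29, 10.02 and 10.01 in E2f3-deleted arrays, against 10.28, 10.04, 10.63 and 10.25 in controls, with a difference of −0.21 (SE 0.128, adjusted p = 0.479). In both, E2f3-deleted replicate E lay within the control range. Rrm1 was −0.14 without replicate A, and Rrm2 −0.10 without control replicate D. Other probe sets above the filter gave −0.32 for Rrm1 and −0.40 and −0.36 for Rrm2, so the sizes for these genes depend on the probe set. Dut, which clears dUTP, had log2 signals of 5.96, 6.63, 6.31 and 6.41 in E2f3-deleted arrays, against 6.60, 6.33, 6.90 and 6.52 in controls. Replicate A was the lowest array, with a difference of −0.26 (SE 0.163, adjusted p = 0.487), and −0.14 without it. Tyms, the thymidylate synthase gene, had a mean signal under the filter on each of its 4 probe sets, 4.19 ± 0.0526 in E2f3-deleted arrays and 4.27 ± 0.210 in controls (SD, n = 4 each) on the one used, and was not tested.

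Among the cyclins and regulators 4 were tested and all were lower, with a median of −0.26 and 1 at an unadjusted p under 0.05. Ccna2, the A-type cyclin of S phase and G2, had log2 signals of 9.77, 10.08, 9.80 and 9.95 in E2f3-deleted arrays, against 10.35, 9.86, 10.38 and 10.22 in controls. Control replicate C lay within the E2f3-deleted range, with a difference of −0.30 (SE 0.128, adjusted p = 0.346). Ccne2, an E-type cyclin of the G1 to S transition, had log2 signals of 6.85, 7.35, 6.61 and 7.02 in E2f3-deleted arrays, against 7.36, 7.01, 7.65 and 7.31 in controls. Replicate F was the lowest array and replicate E lay within the control range, with a difference of −0.38 (SE 0.180, adjusted p = 0.386). Ccne1, the other E-type cyclin, had log2 signals of 8.45, 8.66, 8.22 and 8.30 in E2f3-deleted arrays, against 8.80, 8.38, 8.85 and 8.50 in controls. Only replicates F and H lay below every control, with a difference of −0.22 (SE 0.134, adjusted p = 0.473), and the value turned to 0.06 with scan file letters read as title letters. A second Ccne1 probe set above the filter gave −0.36 without overlap, 6.57 in E2f3-deleted replicate E against 6.63 in control replicate C. The size and overlap for Ccne1 thus depend on the probe set. Cdc25a, the phosphatase that activates cyclin-dependent kinases, had log2 signals of 8.42, 8.25, 8.35 and 7.89 in E2f3-deleted arrays, against 8.37, 8.18, 8.35 and 8.26 in controls. On this probe set Cdc25a was low on replicate H alone, with a difference of −0.06 (SE 0.114, adjusted p = 0.813). Without that array the difference turned to 0.05. A second Cdc25a probe set above the filter gave −0.13, with replicate H the highest of the E2f3-deleted arrays. The low value on replicate H thus depends on the probe set. Mybl2, a transcription factor of the cell cycle, had a mean signal under the filter on each of its probe sets and gave −0.03 without a test on the one used. The other Mybl2 probe set, with a similar mean signal, gave −0.33.

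Chromatin assembly and maintenance were represented by 4 tested genes, all lower, with a median of −0.20 and 1 at an unadjusted p under 0.05. With the Gapdh covariate the step's median turned to 0.02, with Slbp at 0.07 and Dnmt1 at 0.06. Chaf1b, a subunit of the chromatin assembly factor that deposits histones behind the fork, had log2 signals of 7.13, 7.30, 7.21 and 7.25 in E2f3-deleted arrays, against 7.61, 7.30, 7.59 and 7.52 in controls. Only replicate E and control replicate C crossed, with a difference of −0.28 (SE 0.0808, adjusted p = 0.237). Uhrf1, which brings the maintenance methyltransferase to newly copied DNA, had log2 signals of 6.13, 6.84, 6.29 and 6.44 in E2f3-deleted arrays, against 6.90, 6.41, 7.05 and 6.63 in controls. The groups overlapped widely, with a difference of −0.32 (SE 0.184, adjusted p = 0.455). Slbp, which binds the stem-loop of replication-dependent histone mRNAs, had log2 signals of 9.46, 9.87, 9.55 and 9.51 in E2f3-deleted arrays, against 9.74, 9.64, 9.76 and 9.75 in controls. Arrays A, F and H lay below every control and replicate E above them all, with a difference of −0.12 (SE 0.0928, adjusted p = 0.559), and the difference was −0.08 without replicate A. Dnmt1, the maintenance DNA methyltransferase, had log2 signals of 8.03, 8.21, 8.02 and 7.72 in E2f3-deleted arrays, against 8.07, 7.92, 8.26 and 8.12 in controls. Replicate H was the lowest on this probe set, with a difference of −0.10 (SE 0.115, adjusted p = 0.706), and without replicate H the difference was −0.01. A second probe set above the filter gave −0.30, with replicate A the lowest (7.33).

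Further probe sets gave the same direction where the signal was above the filter. The 47 genes had 101 probe sets, of which 72 had a mean signal at or above the filter level of 5.998, and all 72 were lower in E2f3-deleted macrophages. The differences of these 72 ran from −0.40 to −0.01, and sizes could differ between probe sets of the same gene. Of the 101, 8 were higher, all with mean signals from 2.29 to 4.89. They belong to Cdt1 (0.18), Chaf1b (0.01), Mcm10 (0.09), Prim2 (0.19), Rrm1 (0.00428), Slbp (0.04) and Tyms (0.01 and 0.09). At an unadjusted p under 0.05 there were 38 of the 101 probe sets, 37 lower and 1 higher, against 10.1% of all 45101 probe sets, and several of these read the same transcript.

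The 6 steps had similar medians, and no test between them was made. Per-array medians placed E2f3-deleted replicate E highest of its group in all 6 steps and control replicate C lowest of its group in all 6. E2f3-deleted replicate A was the lowest of the 8 arrays for the helicase, polymerase, nucleotide supply and chromatin genes, replicate H for licensing (−0.35, beside −0.34 in replicate A) and replicate F for the cyclins (−0.41). Step medians ran from −0.27 to −0.20. The per-array medians of the steps had SDs of 0.131 to 0.218 within the groups. Arrays moved alike across the steps, so these SDs do not give the error of a difference between steps.

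**Figure D4:**
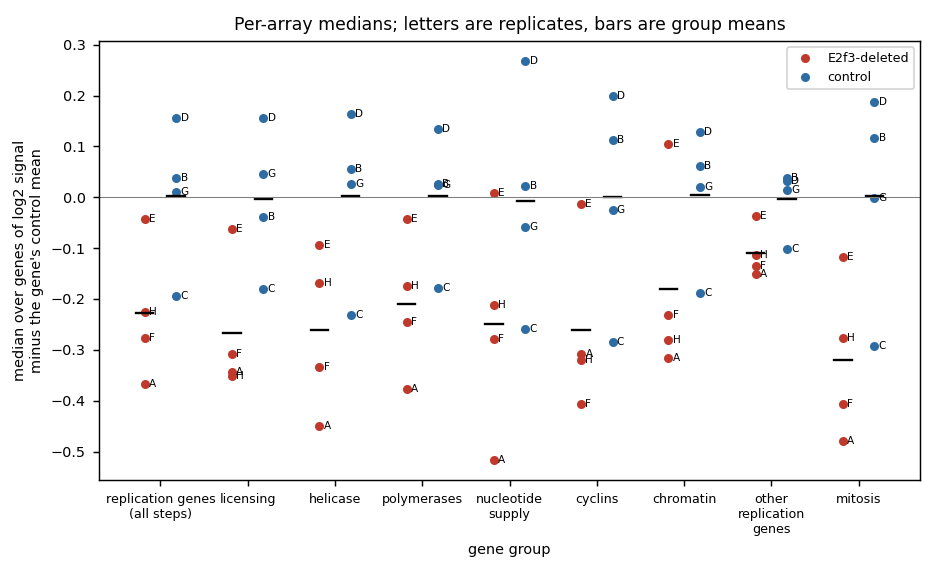
Per-array medians over the genes of each group, of log2 signal minus the gene's control mean, with E2f3-deleted arrays in red, control arrays in blue, replicate letters beside the points and group means as bars. In each step replicate E is the highest E2f3-deleted array and replicate C the lowest control, with −0.04 and −0.19 over all steps.

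Other genes of replication, listed by role and apart from the 48, had a median nearer to 0. Both lists were chosen with earlier results of these data known, so the contrast between them is a description only. Of 45 listed, 44 had a probe set and 42 were tested, of which 36 were lower and 6 higher, with a median of −0.10, against −0.25 for the members and −0.03 for all genes tested. Of these, 9 were at an unadjusted p under 0.05, all lower, beside 6.91% of all genes tested, and 0 passed after adjustment. Asf1b, a histone chaperone, had log2 signals of 8.71, 9.09, 8.80 and 8.87 in E2f3-deleted arrays, against 9.40, 8.9998, 9.37 and 9.25 in controls, with a difference of −0.39 (SE 0.112, adjusted p = 0.239). Rnaseh2a and Rnaseh2b, subunits of the nuclease that removes RNA from DNA, had −0.21 (SE 0.0686) and −0.18 (SE 0.0619), and Dctpp1, a nucleotide pyrophosphatase, −0.20 (SE 0.0671). The groups did not overlap in 3 of the 42 (beside 4.23% of all genes tested). They were Rnaseh2b, Rfc2 and Orc3, the last 2 chosen after their values were seen. Their per-array medians kept to −0.15 to −0.04 in E2f3-deleted arrays and −0.10 to 0.04 in controls.

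Mitosis genes followed the same arrays. Their medians were −0.48, −0.12, −0.41 and −0.28 in E2f3-deleted arrays, against 0.12, −0.29, 0.19 and −0.00184 in controls, with 36 of 36 tested lower. The order of the arrays was that of the replication genes within each group, with A lowest and E highest, and C lowest and D highest. The difference between the 2 groups of genes was not tested.

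**Figure D5:**
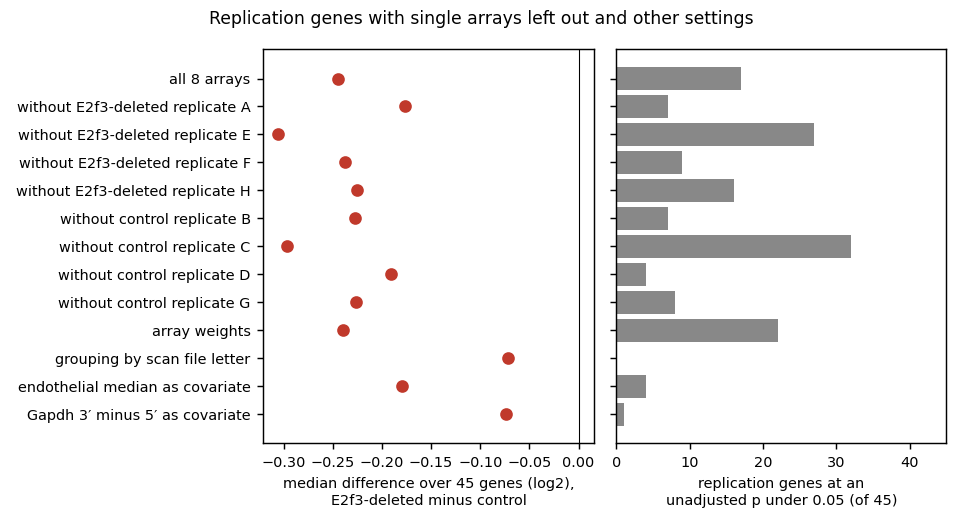
Left, median difference over the 45 replication genes (log2, E2f3-deleted minus control), and right, the number of them at an unadjusted p under 0.05, with all 8 arrays, with each array left out, and under 4 other settings. The median stays below 0 in every row and comes nearest to it with arrays grouped by reading scan file letters as title letters (−0.07) and with the Gapdh covariate (−0.07).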

How the data were processed

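RNA from F4/80-positive macrophages was measured on 8 Affymetrix arrays, 4 E2f3-deleted and 4 control, grouped by the genotype in the labels. The deposited log2 signals were made by the authors with RMA, per the submitters' processing notes, and its version is not given in the sources used here. The value table held 0 columns of no sample. Array medians lay between 5.65 and 5.69, and no pair of arrays was identical. Of 45101 probe sets, 34958 were annotated with 1 gene symbol, 932 with several and 9211 with none.

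Each gene was taken from its brightest probe set, genes under the 40th percentile of mean signal were left out, and E2f3-deleted minus control was fitted by limma's moderated linear model (version 3.58.1, under R 4.3.3, two-sided), with Benjamini-Hochberg adjustment over all genes tested at 0.05. Adjusted p-values in the text are from this fit, those of E2f3 and of further probe sets from the same fit over all probe sets. The fit was tested on simulated data. Summaries and figures used Python 3.11.15, pandas 2.3.3 and matplotlib 3.10.9.

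The members and lists were chosen with earlier results of these data known. Values on every array are given for up to 4 members a step with the smallest unadjusted p and the brightest of the step, and other replication genes are named for the 4 smallest p. Medians over lists carry no test. Alternatives covered the probe set, the filter, the normalization, the variance prior, array weights, the grouping, 2 covariates, and each array left out.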

Additional observations from a re-analysis of the deposited data

Results flagged for a closer look

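In 5 of 68 groups of 4 values examined, 1 array stood apart from the other 3 of its group by Dixon's test, where chance alone gives about 1 in 20. Cdc6 was 8.11 in E2f3-deleted replicate E, against 7.62 to 7.70 in the others of that group. Rrm2 was 10.29 in the same replicate, against 10.01 to 10.05. The median over licensing genes was −0.06 in replicate E, against −0.35 to −0.31 in the other E2f3-deleted arrays. Wdhd1 was 8.69 in control replicate C, against 9.05 to 9.07 in the other controls, and Slbp was 9.64 there, against 9.74 to 9.76. All 5 concern E2f3-deleted replicate E or control replicate C.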

How the results depend on the processing

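No paired analysis was possible because no replicate letter occurs in both groups. The median over members stayed below 0 in all 18 settings that gave one, with −0.0716 when scan file letters are read as title letters and −0.0735 with the Gapdh covariate. With scan file letters read so, 0 members were at an unadjusted p under 0.05, beside 4.11% of all genes in either direction. Under that reading 0 members had non-overlapping groups, beside 1.75% of all genes with the E2f3-deleted values lower. The helicase median was then −0.0706 and the cyclin median −0.0130. Of the 45 members 7 turned sign, Ccne2 (0.000798), Ccne1 (0.0631), Orc1 (0.119), Fen1 (0.0668), Mcm5 (0.0459), Mcm4 (0.0216) and Rpa2 (0.0136). With the Gapdh covariate, 1 member was at that p, medians were −0.0495 for licensing, −0.0982 for the helicase, −0.0688 for polymerases, −0.0158 for nucleotide supply and 0.0173 for chromatin, and 6 members turned sign, Orc6 (0.0375), Pole2 (0.0375), Rrm1 (0.0147), Dut (0.0660), Slbp (0.0663) and Dnmt1 (0.0557). The endothelial covariate left 4 members at that p, and Orc1 (0.133) and Cdc7 (0.00497) turned sign. Testing every probe set gave 38 of the members' 101 probe sets at that p, a count of probe sets and not of members. Non-overlapping groups were found in 4 members with the mean of probe sets (beside 5.11%), 4 with median centring (4.92%) and 5 with quantile normalization (4.33%). The percentages are shares of all genes tested with the E2f3-deleted values lower. Leaving out 1 array gave 0 to 60 genes called over all genes (60 without E2f3-deleted replicate E, 14 without replicate H), and −0.127 to 0.0472 for Cdc25a. In these fits 4 to 32 members were at an unadjusted p under 0.05, beside 4.31% to 8.49% of all genes lower at that p. Groups did not overlap in 2 to 22 members, beside 5.62% to 8.9% of all genes with the E2f3-deleted values lower. The cause of these moves was not tested. Of 461 results for the 26 members named with values on every array, 453 kept their direction and 8 turned sign. Most of the 26 were picked for a small p in the main fit, and the settings refit the same 8 arrays, so this count favours a stable direction. Among members not in the 26, Pole2 turned sign in 5 settings and Orc1 in 3. Mcm4, Mcm5, Cdc7, Rpa2 and Fen1 did so in 1 each. No member passed the adjusted threshold in any setting, and sizes moved more than directions, as for Mcm3, −0.33 with all arrays as labelled and −0.0842 with scan file letters read as title letters. With 4 arrays a group, differences of the size seen here lie near the spread between arrays.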
